A study of Homo sapiens with 2 samples.

Results

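The mitochondrial ribosomal proteins were followed here in L-540, an established Hodgkin lymphoma cell line, on 1 array of vorinostat-treated cells and 1 array of untreated cells. Vorinostat is a hydroxamate inhibitor of histone deacetylases, and the labels give neither its dose nor the time of exposure. Both cultures came from the same line, grown under standard conditions, and each Affymetrix gene expression array gave 22283 probe sets a MAS5 signal on a linear intensity scale. With 1 array per group there was no replicate, so no test was run, no p-value is given, and culture, array and treatment cannot be told apart. Member genes were chosen by platform symbol, as every probe set with a single symbol that starts with MRPL or MRPS and a digit. No signal entered that rule, but the members and lists were chosen with earlier results of these data known. The symbol rule found 64 probe sets for 51 genes, of 11963 genes with a single symbol on the array. These were 31 MRPL genes on 35 probe sets and 20 MRPS genes on 29 probe sets.

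Mitochondria carry their own ribosome, made of a large and a small subunit, which translates the few messenger RNAs encoded by mitochondrial DNA into core subunits of the respiratory chain. All its proteins are encoded in the nucleus and imported, while its ribosomal RNAs come from mitochondrial DNA. Some of these proteins have a counterpart in the bacterial ribosome, and others are found in mitochondrial ribosomes only. Symbols follow the family in which a protein was first placed, and in the human structure MRPS18A and MRPS30 lie in the large subunit in spite of their names.

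A signal below 68.9 units, the 40th percentile over both arrays without control probe sets, was treated as not measured and set to that floor. Each gene was represented by its brightest probe set. On this basis 30 of 31 MRPL genes and 19 of 20 MRPS genes were measured, and all 49 lay above the floor on both arrays. The median signal over all probe sets was 115 on the vorinostat array and 126 on the untreated array, and the mean after trimming both tails was 500.2 on each. Of the markers fixed to check the label, all 6 Hodgkin cell genes were measured, among them IRF4 with 14699 in vorinostat and 12032 in untreated cells, and TNFRSF8, which encodes CD30, with 3228 in vorinostat and 10777 in untreated cells. Of markers of other cells 3 of 5 fibroblast, 2 of 5 epithelial, 1 of 6 myeloid and 1 of 2 erythroid genes were measured, the brightest being COL1A1 with 273 in vorinostat and 276 in untreated cells.

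Most member genes had close signals on both arrays. Of the 49 measured genes, 44 lay within 1.5-fold and 47 within 2-fold of the untreated signal. At the 1.5-fold limit 1 member was higher in vorinostat cells and 4 were lower, against 12.7% higher and 15.5% lower among all 8277 measured genes. At 2-fold 0 members were higher and 2 were lower, against 3.77% higher and 5.12% lower among all measured genes. Of all 2-fold differences 42.4% were higher in vorinostat cells, and 58.8% when both arrays were scaled to equal medians instead. The SD of the log2 ratio (vorinostat over untreated) was 0.36 over member genes and 0.59 over all measured genes. The groups differed in signal level. Median signals were 970 in vorinostat and 937 in untreated cells over member genes, and 452 and 461 over all measured genes. All 49 members lay above the floor on both arrays, against 7373 of all 8277 measured genes. The part of level and floor in these shares and SDs was not tested.

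The MRPL ratios lay lower than the MRPS ratios in the median. The median log2 ratio was -0.17 for the 30 MRPL genes and 0.00 for the 19 MRPS genes, beside -0.04 for all measured genes. The ratio was below 0 for 21 of 30 MRPL genes and for 9 of 19 MRPS genes, beside 53.0% of all measured genes. The order of these shares did not hold without shared-sequence probe sets, where 7 of 12 MRPL and 6 of 10 MRPS genes were below 0, and with equal medians the counts were 17 of 30 MRPL and 7 of 19 MRPS genes. Over the reported setting and 8 alternatives, the MRPL median minus the median of all genes was -0.22 to -0.12, while the same difference for MRPS was -0.06 to 0.06 and changed sign. With 1 array per group the difference between the families was not tested. Probe sets of 1 gene were also compared on the same arrays. The brightest and the next one differed in log2 ratio by a median of 0.25 over 2428 genes, with a 90th percentile of 0.67. Differences between cultures and arrays act on both probe sets, so this spread does not measure the error of a ratio. Among the members' own ratios, those of MRPS18B, MRPL58 and MRPL28 were larger in size than that 90th percentile.

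**Figure D1:**
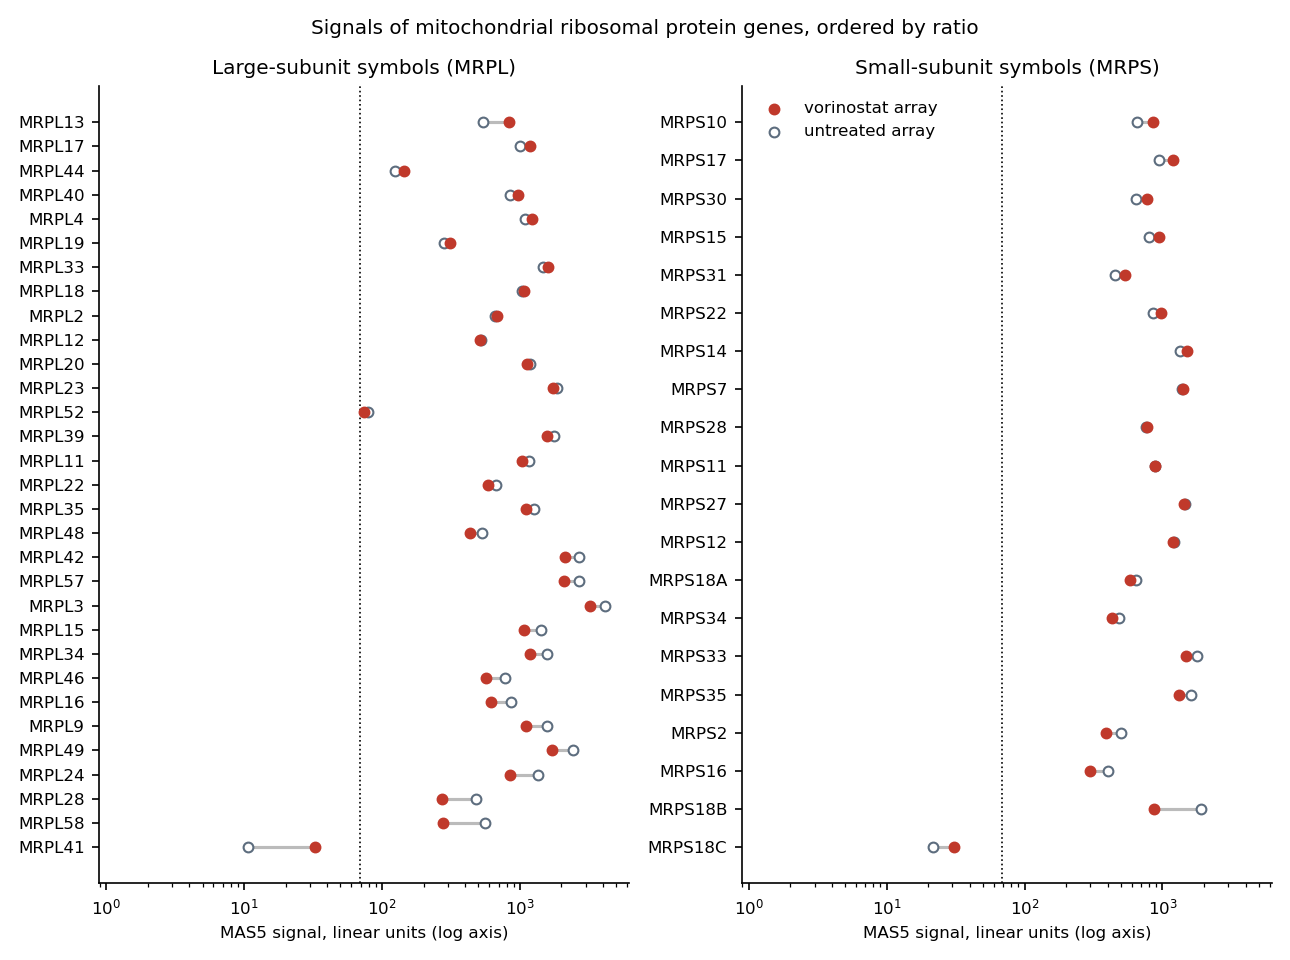
MAS5 signal (log axis) of every member gene on its brightest probe set, filled for the vorinostat array and open for the untreated array, with MRPL genes left and MRPS genes right, ordered by ratio. The dotted line is the floor of 68.9 units; MRPL41 and MRPS18C, at the bottom, lie under it on both arrays, and MRPL58 and MRPS18B show the widest gaps among the measured genes.

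The promoters of the members furthest from a ratio of 1 are shown first. They are the genes at least 1.5-fold apart that the RefSeq promoter table (GRCh38.p14) holds. MRPL13, the only member at least 1.5-fold higher, has no entry there under its symbol, so every window shown is of a lower gene. Each window runs from 250 bases before to 50 bases after the annotated start, 5′ to 3′ on the gene's own strand. Capitals mark matches to the motifs described further on, and windows of MRPL28 and MRPL58 held none.
MRPS18B, chr6:30617590-30617889, plus strand: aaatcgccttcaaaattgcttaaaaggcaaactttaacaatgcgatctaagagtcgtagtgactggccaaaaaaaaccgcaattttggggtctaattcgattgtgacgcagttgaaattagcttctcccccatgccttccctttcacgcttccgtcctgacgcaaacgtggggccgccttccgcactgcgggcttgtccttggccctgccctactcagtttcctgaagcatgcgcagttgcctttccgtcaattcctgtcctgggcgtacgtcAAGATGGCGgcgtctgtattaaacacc
MRPL58, chr17:75012420-75012719, plus strand: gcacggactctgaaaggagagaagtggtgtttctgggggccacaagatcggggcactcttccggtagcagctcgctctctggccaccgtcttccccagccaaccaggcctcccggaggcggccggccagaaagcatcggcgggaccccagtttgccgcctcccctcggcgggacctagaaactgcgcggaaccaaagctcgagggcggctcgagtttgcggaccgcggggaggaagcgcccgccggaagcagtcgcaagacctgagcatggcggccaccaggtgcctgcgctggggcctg
MRPL28, chr16:370489-370788, minus strand: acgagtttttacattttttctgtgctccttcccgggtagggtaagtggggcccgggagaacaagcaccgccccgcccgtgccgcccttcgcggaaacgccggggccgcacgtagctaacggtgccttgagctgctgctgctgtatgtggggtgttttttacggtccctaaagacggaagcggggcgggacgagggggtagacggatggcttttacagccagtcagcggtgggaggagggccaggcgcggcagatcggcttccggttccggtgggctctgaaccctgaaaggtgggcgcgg
MRPL24, chr1:156741039-156741338, minus strand: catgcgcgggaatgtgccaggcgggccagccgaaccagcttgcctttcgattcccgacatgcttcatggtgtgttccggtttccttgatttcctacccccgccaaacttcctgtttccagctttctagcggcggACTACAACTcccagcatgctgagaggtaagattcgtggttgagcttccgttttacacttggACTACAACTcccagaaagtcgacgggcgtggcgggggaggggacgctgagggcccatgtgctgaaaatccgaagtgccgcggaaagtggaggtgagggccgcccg

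MRPS18B, a small-subunit protein and 1 of 3 human relatives of bacterial S18, had a signal of 861 in vorinostat cells and 1894 in untreated cells, 2.20-fold lower (log2 ratio -1.14). Its other probe set read 625 in vorinostat cells and 1167 in untreated cells, a log2 ratio of -0.90. Both probe sets were thus lower on the vorinostat array, but the gene falls short of 2-fold on the other one, which is the only 1 of the pair without a suffix for shared sequence. MRPL58, a peptidyl-tRNA hydrolase built into the large subunit that releases chains from stalled ribosomes, had 278 in vorinostat cells and 560 in untreated cells, 2.02-fold lower. That ratio sits at the 2-fold limit, and in 4 of 8 alternatives it did not reach it, with log2 ratios from -0.98 to -0.88.

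Among the large-subunit proteins with a bacterial counterpart, MRPL28 had 274 in vorinostat cells and 484 in untreated cells (1.76-fold lower). MRPL24, which lies near the exit of the peptide tunnel, had 853 in vorinostat and 1358 in untreated cells (1.59-fold lower), and with equal medians its log2 ratio of -0.54 was short of 1.5-fold. In the other direction MRPL13 had 837 in vorinostat cells and 538 in untreated cells (1.56-fold higher), and was the only member at least 1.5-fold higher. Each of these 3 genes rests on a single probe set, so no other probe set bears on its ratio.

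The next lowest MRPL genes were MRPL49 and MRPL9. MRPL49 had 1696 in vorinostat cells and 2423 in untreated cells, a log2 ratio of -0.52. MRPL9 had log2 ratios of -0.50 and -0.52 on its 2 probe sets. After MRPL13 the highest MRPL ratios were small, with 0.25 for MRPL17, 0.21 for MRPL44, which carries a ribonuclease III-like fold, 0.19 for MRPL40 and 0.15 for MRPL4. These were at or below about 0.25, the median difference between probe sets of 1 gene, which does not measure the error of a ratio.

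By origin, the 20 measured large-subunit genes with a bacterial counterpart had a median log2 ratio of -0.14, with 13 below 0. The 10 measured genes found in mitochondrial ribosomes only had a median of -0.32, with 8 below 0. Over all measured genes the median was -0.04, with 53.0% below 0. With equal medians the medians of both groups were -0.01 and -0.19, beside 0.08 for all genes. Without shared-sequence probe sets they were -0.06 over 8 genes and -0.41 over 4 genes, beside -0.02 for all genes. Among the genes found in mitochondrial ribosomes only, MRPL46 had 570 in vorinostat cells and 780 in untreated cells. MRPL57, of the same group, had log2 ratios of -0.36, -0.21 and -0.01 on 3 probe sets in falling order of signal. MRPL52 lay close to the floor, with 73.8 in vorinostat and 79.5 in untreated cells, and MRPL41 was under it on both arrays, at 32.4 in vorinostat and 10.6 in untreated cells.

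The following MRPL genes lay less than 1.5-fold apart between the arrays. MRPL12, part of the stalk that recruits translation factors and also a partner of the mitochondrial RNA polymerase, had 517 in vorinostat cells and 519 in untreated cells. MRPL33 had 1588 in vorinostat and 1467 in untreated cells. MRPL3, which reaches toward the peptidyl transferase centre, had 3234 in vorinostat cells and 4163 in untreated cells, a log2 ratio of -0.36. The ratio of MRPL12 turned to 0.12 when arrays were scaled to equal medians, a scaling that moved the median of all genes by 0.12. The 13 measured MRPL genes not described singly (MRPL2, MRPL11, MRPL15, MRPL16, MRPL18, MRPL19, MRPL20, MRPL22, MRPL23, MRPL35, MRPL39, MRPL42 and MRPL48) had log2 ratios from -0.48 for MRPL16 to 0.14 for MRPL19.

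In the MRPS family, taken by symbol, the ratios spread about 0. The highest were MRPS10, at 848 in vorinostat cells and 648 in untreated cells (log2 ratio 0.39), and MRPS17, at 1188 in vorinostat and 937 in untreated cells (0.34). They were followed by MRPS30, which lies in the large subunit in spite of its symbol, at 0.26, MRPS15 at 0.25 and MRPS31 at 0.23. After MRPS18B the lowest were MRPS16, the first of the family linked to inherited mitochondrial disease, at 297 in vorinostat and 402 in untreated cells (-0.43), MRPS2 at -0.37, MRPS35 at -0.28 and MRPS33 at -0.27. Except for MRPS18B, no MRPS gene reached 1.5-fold on its brightest probe set.

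By origin, the 9 measured small-subunit genes with a bacterial counterpart had a median log2 ratio of 0.02 and the 6 found in mitochondrial ribosomes only had one of -0.09. The first median turned to -0.02 with loess and the second to 0.04 with equal medians. None of these 15 was 1.5-fold apart on its brightest probe set, beside 28.2% of all measured genes. Dimmer probe sets of MRPS12 (1.99-fold), MRPS31 (1.70-fold) and MRPS14 (at least 2.22-fold) were past that limit, each higher in vorinostat cells. The split by origin leaves out MRPS18A, MRPS18B, MRPS28 and MRPS30, and MRPS18B is the 1 measured MRPS gene that was 1.5-fold apart on its brightest probe set. MRPS22, of the second kind and also a disease gene, had 982 in vorinostat cells and 854 in untreated cells (0.20). MRPS7 had 1414 in vorinostat and 1395 in untreated cells, and MRPS11 had 887 in vorinostat and 885 in untreated cells, the smallest difference of all measured members. MRPS27, MRPS28 and MRPS34 had log2 ratios of -0.02, 0.02 and -0.16.

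The relatives of bacterial S18 did not share a ratio. MRPS18A had log2 ratios of -0.14 and -0.13 on its 2 probe sets, with 582 in vorinostat cells and 642 in untreated cells on the brighter one. MRPS18B was the lowest ratio of the family. MRPS18C, which takes the place of the bacterial protein, read 30.7 in vorinostat and 21.6 in untreated cells, under the floor on both arrays, so it has no ratio here.

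**Figure D2:**
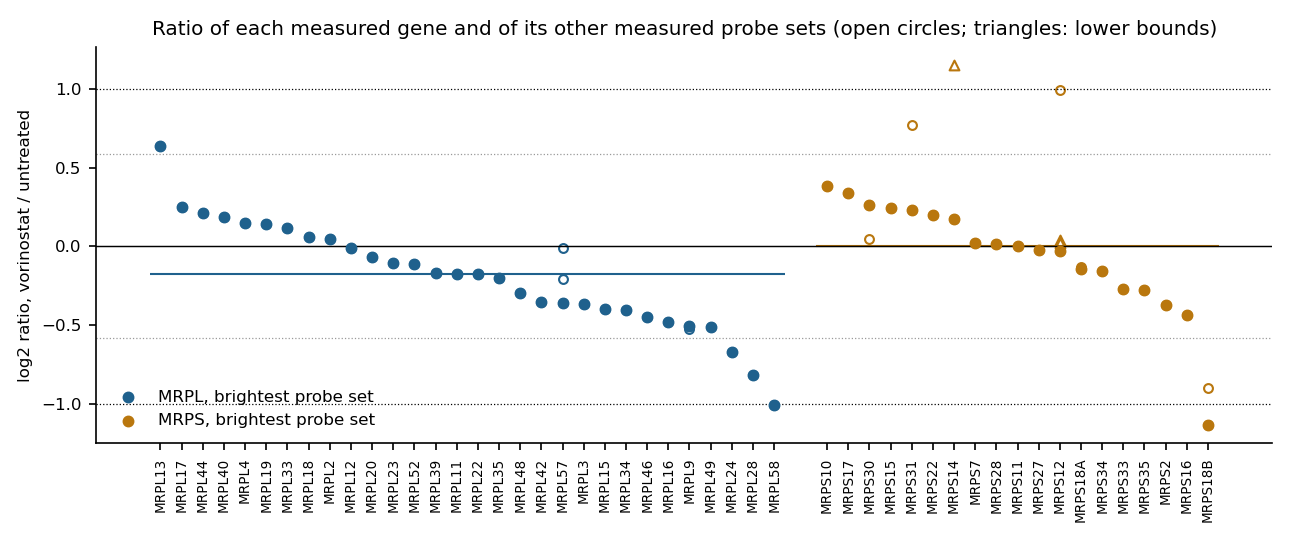
Log2 ratio (vorinostat over untreated) of each measured member gene, filled for its brightest probe set and open for its other measured probe sets, triangles being lower bounds from probe sets at the floor in untreated cells; coloured lines are family medians, -0.17 for MRPL and 0.00 for MRPS. Dotted lines mark 1.5-fold and 2-fold; MRPL58 and MRPS18B reach the lower 2-fold line, and dim probe sets of MRPS12, MRPS14 and MRPS31 lie above their brightest ones.

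Of the 51 member genes, 41 rest on 1 probe set. Among the 7 genes with 2 or more probe sets above the floor on both arrays, the brightest and the next probe set differed in log2 ratio by a median of 0.21, from 0.01 for MRPS18A to 1.03 for MRPS12. MRPS12, a protein of the decoding centre, had 1183 in vorinostat and 1210 in untreated cells on its brightest probe set. A dimmer one of its probe sets read 153 in vorinostat cells and 76.8 in untreated cells, a log2 ratio of 0.99, and its 2 others were at the floor in untreated cells with bounds of 0.04 and 0.02. MRPS14 had 1503 in vorinostat and 1335 in untreated cells on its brightest probe set, while its dim one, at the floor in untreated cells, was at least 2.22-fold higher. MRPS31 had log2 ratios of 0.23 and 0.77. In these 3 genes the larger ratio came from the dimmer probe set, and which probe set reads the transcript better was not tested.

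A few proteins of the same ribosome carry other symbols, and they were set beside the family. DAP3, a GTP-binding protein of the small subunit, had 2365 in vorinostat cells and 1479 in untreated cells (1.60-fold higher). PTCD3, a pentatricopeptide repeat protein of the small subunit near the messenger RNA channel, had 1380 in vorinostat cells and 810 in untreated cells (1.70-fold higher). GADD45GIP1, of the large subunit, had 383 in vorinostat and 453 in untreated cells. Both small-subunit proteins thus had larger ratios than the brightest probe set of every measured MRPL and MRPS gene, each on 1 probe set.

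The other lists of mitochondrial gene expression held no gene at least 2-fold apart. Among all measured genes 3.77% were 2-fold higher and 5.12% lower, and at 1.5-fold 12.7% were higher and 15.5% lower. Lists this short hold few genes to set beside those shares. Of 8 measured translation factors 0 were 1.5-fold higher and 1 was lower (median log2 ratio 0.06), namely TACO1, an activator of cytochrome oxidase subunit translation, at 263 in vorinostat and 396 in untreated cells. A lower floor, the 25th percentile, brought in 1 more gene and turned the list's median to -0.11, while equal medians gave 0.29 over 7 genes. The initiation factor gene MTIF2 had a log2 ratio of -0.56 and the elongation factor gene TUFM one of 0.43. Of 13 assembly and ribosomal RNA maturation genes none reached 1.5-fold (median -0.21), with ERAL1, a chaperone of the small-subunit RNA, at -0.55, the methyltransferase gene TFB1M at 0.50 and MRM3 at 0.48. The median of this assembly list was 0.01 when probe sets of a gene were summarised by their median.

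Among 13 measured genes of mitochondrial transcription and RNA handling, 1 was 1.5-fold higher and 0 were lower (median 0.22). Of all measured genes 12.7% were higher and 15.5% lower at that limit. The higher gene of the list was FASTKD5, which takes part in the processing of mitochondrial transcripts. It had 651 in vorinostat cells and 346 in untreated cells (1.88-fold higher). SLIRP, which stabilises mitochondrial messenger RNAs, had a log2 ratio of 0.54 and the poly(A) polymerase gene MTPAP one of -0.49. Messenger RNAs of mitochondrial DNA were looked for by symbols starting with MT-ND, MT-CO, MT-CYB or MT-ATP, and no single-symbol probe set matched. Other symbols for them were not searched, so the transcripts that this ribosome translates were not analysed here.

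The cytosolic ribosomal proteins and the nuclear respiratory chain subunits gave the closest comparison by kind of gene. Among all measured genes 71.8% lay within 1.5-fold. Of 51 measured cytosolic ribosomal protein genes, 50 lay within 1.5-fold, their median log2 ratio was 0.03 and their SD 0.15. The exception was RPL27A, with 212 in vorinostat and 372 in untreated cells on a shared-sequence probe set. The median signals of this list were 19498 in vorinostat and 19259 in untreated cells. Whether that dim probe set reads the RPL27A transcript well was not tested. Of 64 measured respiratory chain genes 4 were 1.5-fold higher and 2 lower, beside 12.7% and 15.5% of all measured genes. The median of this respiratory chain list was 0.07. Its widest ratios were those of ATP5MC1 (1224 in vorinostat and 709 in untreated cells), NDUFA2 and NDUFB11 (log2 ratios of 0.77 and 0.76). The ratio was below 0 for 70.0% of MRPL genes, 47.4% of MRPS genes, 34.4% of respiratory chain genes and 29.4% of cytosolic ribosomal protein genes. The same 4 lists differed in signal level, with median signals in vorinostat cells of 1056, 887, 4343 and 19498 in that order, and in the share of genes read by a shared-sequence probe set (60%, 63.2%, 53.1% and 80.4%). The part of level and of shared sequence in these shares was not tested.

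**Figure D3:**
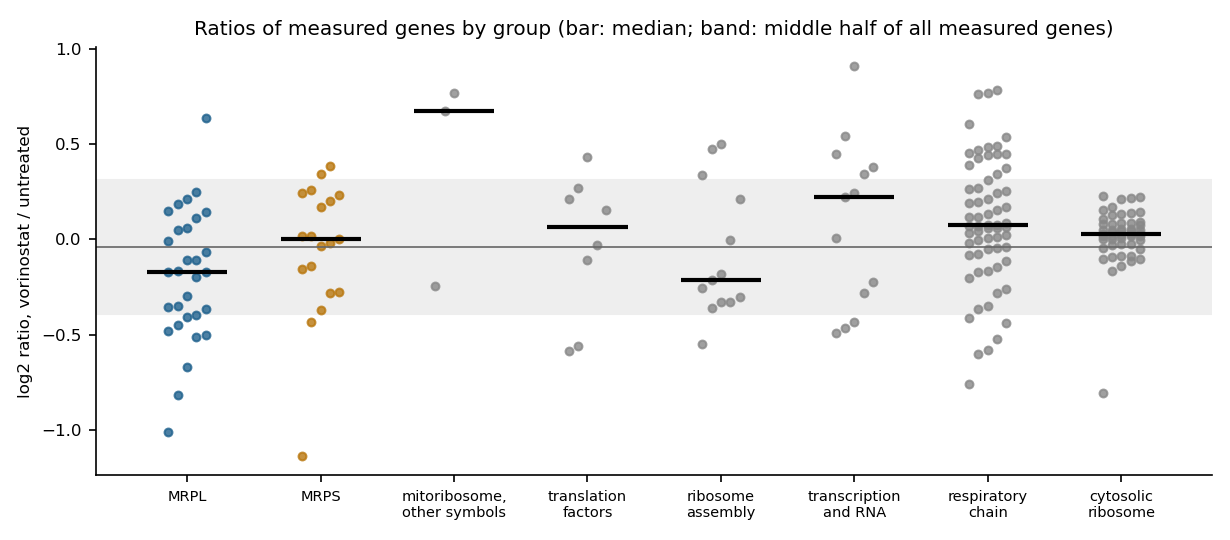
Log2 ratio (vorinostat over untreated) of every measured gene in the MRPL and MRPS families and in 6 related lists, with a bar at each median; the grey line and band are the median and interquartile range of all measured genes. The MRPL median of -0.17 and the assembly median of -0.21 lie below the grey line, and cytosolic ribosomal proteins are spread least.

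Some genes of this family start close to a gene on the opposite strand. Of the 45 member genes in the RefSeq promoter table, 12 (26.7%) had a protein-coding neighbour that starts less than 1000 bases away and runs the other way, beside 12.3% of all 15843 protein-coding genes in the table. The 12 members formed 11 pairs, and both genes were measured in 6 of them. MRPS18B is paired with PPP1R10, a regulatory subunit of protein phosphatase, which had 819 in vorinostat cells and 845 in untreated cells on its brightest probe set and a log2 ratio of -0.69 on its other one. MRPS12 is paired with SARS2, the mitochondrial seryl-tRNA synthetase gene, which had 142 in vorinostat cells and 359 in untreated cells (2.52-fold lower), while MRPS12 had a log2 ratio of -0.03. MRPL46 and MRPS11, members of different subunits, start 320 bases apart and had log2 ratios of -0.45 and 0.00.

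The remaining pairs were closer to each other. MRPL49 had a log2 ratio of -0.52 and its partner FAU, which encodes a ubiquitin-like fusion to a cytosolic ribosomal protein, one of -0.15. MRPL40 and the histone chaperone gene HIRA had 0.19 and 0.16, and MRPS7 and the trafficking adaptor gene GGA3 had 0.02 and -0.04 on their brightest probe sets. The other probe set of GGA3 gave -0.47.

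**Figure D4:**
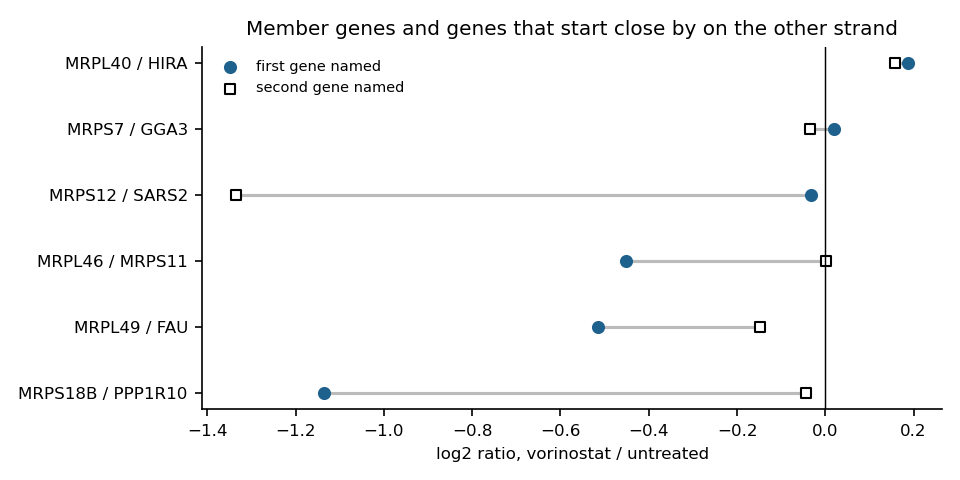
Log2 ratio (vorinostat over untreated) of the 6 measured gene pairs that start less than 1000 bases apart on opposite strands, each on its brightest probe set; circles are the first and squares the second gene of each label. The pairs of MRPS18B and MRPS12 are the widest apart, and in each of them 1 gene lies near 0.

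The promoter windows were searched for 4 motifs on either strand: GCGCANGCG for NRF1, CCGGAAGT for ETS factors such as GABPA, AAGATGGCG for YY1 and ACTACAANT for ZNF143. The factors NRF1 and GABPA are known for regulating nuclear genes of mitochondria. Of 45 member genes in the table, 21 (46.7%) had at least 1 match, beside 22.1% of all 15843 protein-coding genes. The YY1 letters were in 8 members (17.8%, beside 3.21% of all genes), the NRF1 letters in 8 (17.8%, beside 12.5%), the ETS letters in 7 (15.6%, beside 6.97%) and the ZNF143 letters in 2 (4.44%, beside 2.25%). In MRPS18B, printed above, the YY1 match begins 23 bases after the start, and in MRPL24 both capitalised stretches match ZNF143.

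Members with and without each set of letters were then set side by side. The median log2 ratio was -0.16 for the 8 measured members with the YY1 letters and -0.07 for the 35 without, -0.17 and -0.12 for 7 with and 36 without the NRF1 letters, and -0.11 and -0.15 for 7 with and 36 without the ETS letters. Of the 2 members with the ZNF143 letters, MRPL24 had a log2 ratio of -0.67 and MRPL34 one of -0.41. A match describes letters in the window and does not show binding.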

How the data were processed

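The authors deposited 1 intensity value per probe set and array. Per the submitters' processing notes MAS5 was used; its version, scaling target and detection calls are not given in the sources used here. RNA was biotin-labelled and hybridised to 1 array per group, per the labels' protocols. The members and lists were chosen with earlier results of these data known.

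From the 22283 probe sets, 68 controls were left out. Symbols came from the platform annotation (19065 probe sets with 1 symbol, 1043 with several, 2107 with none). Signals under the 40th percentile (68.9) were set to it before log2. A gene was measured if its brightest probe set was above that floor on at least 1 array. Ratios are vorinostat over untreated on the deposited scaling. With 1 array per group there is no test, and the number of arrays limits the precision. Genes named were the 5 highest and 5 lowest ratios per family, all members at least 2-fold apart, at the floor or with probe sets over 0.58 apart, a set fixed by role, and up to 3 of each other list. Alternatives covered scaling, floor, an offset of 16, the choice of probe set and shared-sequence probe sets. Steps used Python 3.11.15, pandas 2.3.3 and statsmodels 0.14.6. Of these steps, the gene ratios and the 2-fold counts were tested on simulated data.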

Additional observations from a re-analysis of the deposited data

Results flagged for a closer look

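A probe set outside the families was annotated to 2 symbols, MRPS31P5 (a pseudogene related to MRPS31) and THSD1, and so was used for no gene. It had a signal of 344 in vorinostat cells and 172 in untreated cells, a log2 ratio of 0.99995, above the level in untreated cells. The MRPS31 probe sets themselves had log2 ratios of 0.23 and 0.77.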

How the results depend on the processing

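The count of MRPL genes at least 2-fold apart was 1 as reported, beside 3.77% of all measured genes higher and 5.12% lower. It was 0 with equal medians, quantile normalization, loess or an offset, where MRPL58 had log2 ratios of -0.88, -0.96, -0.98 and -0.97. Without shared-sequence probe sets 12 MRPL and 10 MRPS genes were measured, and 2 genes of each family were at least 1.5-fold apart. The share over all 5187 genes measured in that setting was 28.2%. The reported counts were 4 MRPL and 1 MRPS genes, beside 28.2% of all measured genes. Without shared-sequence probe sets MRPS18B had -0.90 and MRPS14 a bound of 1.15. With the median over probe sets 2 MRPS genes were 1.5-fold apart, beside 27.1% of all measured genes. Equal medians moved the median log2 ratio of all genes by 0.12, that of MRPL genes to -0.043 and that of MRPS genes to 0.13. The MRPL median kept its sign in 8 of 8 alternatives (-0.23 to -0.04) and the MRPS median in 5 of 8 (-0.08 to 0.13); the MRPL median minus the MRPS median was -0.19 to -0.16 over them. Of 49 member genes, 41 kept their sign in all their alternatives. Of 363 single-gene values, 301 moved by at most 0.1 without crossing the 2-fold limit. Some alternatives could not move a ratio, so these counts were partly fixed in advance. A gene keeps its ratio under any floor that it clears on both arrays, and a gene with 1 probe set has no other to choose. Equal medians shift the log2 ratio of every gene above the floor on both arrays by the same amount. Causes of the other moves were not tested. No paired analysis was possible because each group holds 1 array. Leaving out a replicate was not possible for the same reason.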
